A study of Mus musculus with 24 samples.

Results

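Primitive streak and early mesoderm genes were read from RNA sequencing profiles of CGR8 mouse embryonic stem cells (ESCs) in which Rsl24d1, a factor of large ribosomal subunit assembly, was depleted. The 9 genes were chosen by symbol (Mixl1, Eomes, Gsc, Tbx6, Mesp1, Evx1, Tbx4, Cdx1 and Cdx2) and all 9 are among the 54242 gene symbols of the deposited table. Levels are in TPM, a unit scaled by transcript length and by the library total, and tests were run on log2(TPM + 1). Of the 9 genes, 7 had a mean of at least 0.5 on that scale over the 24 libraries and were tested beside 16447 genes in all. Mesp1 and Evx1, with means of 0.17 each, were not.

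The primitive streak is the site of gastrulation, where epiblast cells receiving Nodal, Wnt and BMP signals leave the epithelium and become mesoderm or definitive endoderm. Mixl1, Eomes, Gsc and Evx1 are among the first transcription factors switched on there, Mesp1 and Tbx6 mark the nascent cardiac and paraxial mesoderm that follows, and Cdx1 and Cdx2 act in the posterior streak and set Hox expression. Tbx4 belongs to a later stage and is known for the allantois, hindlimb bud and lung mesenchyme. Eomes and Cdx2 also have earlier roles in the trophoblast. Cultures of ESCs in serum and LIF, the cytokine that sustains self-renewal, hold few cells with streak genes on, and Brachyury (gene symbol T) is the classical marker of those.

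The 24 libraries form 8 groups of 3. Cells received a pool of non-targeting siRNAs (si-CTL, siControl in the labels) or of siRNAs against Rsl24d1 (si-Rsl24d1), and were taken either as ESCs in serum and LIF (day 0) or after 4 days with 10 nM retinoic acid (day 4). In the rescue groups an RSL24D1 transgene was induced with doxycycline, and these cells carry the vector label RSL24D1_OE, whereas the groups without rescue were not given doxycycline and are labelled empty_vector. The study's methods instead describe 1 rescue line cultured with or without doxycycline. By either account doxycycline and the transgene change together and cannot be told apart, and by the labels the vector changes with them. The rescue line was made by piggyBac transposition and puromycin selection, and the sources used here do not call it a clone. Whether LIF was present together with retinoic acid is stated differently in the study's methods and in its design text.

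Rsl24d1 itself was lower in si-Rsl24d1 at day 0 and not detectably so at day 4. At day 0 without rescue it was at 136 to 148 TPM in si-CTL and 32.7 to 37.9 TPM in si-Rsl24d1, and with rescue at 147 to 158 and 96.1 to 121 TPM. At day 4 without rescue the siRNA groups overlapped, at 95.9 to 101 and 89.3 to 99.8 TPM (log2 change -0.04, SE 0.07, limma adjusted p = 0.66). Without rescue, the 10 pluripotency markers examined moved in both directions between the days. With limma adjusted p under 0.01, 8 were lower and 2 higher at day 4 in si-CTL. In si-Rsl24d1, 3 were lower and 5 higher. Their summed level was 5195 to 5352 TPM at day 0 and 6979 to 7160 TPM at day 4 in si-CTL, and 4111 to 4158 and 6068 to 6856 TPM in si-Rsl24d1. The sum gives most weight to Dppa5a, the highest of the 10, which was higher at day 4 in both (1.03 and 1.05). Whole reads cannot be recovered from TPM, so depth is unknown and no counting interval is given. No 2 libraries were identical, and the highest correlation between any pair was 0.991.

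Below, a gene is said to rise or fall where limma's Benjamini-Hochberg adjusted p was under 0.01, and to be called where it also changed by more than 1.8-fold on the log2(TPM + 1) scale, that is by more than 0.85. For genes near 1 TPM this scale understates the fold change, and for some changes the ratio of mean TPM or the TPM are given beside it.

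All 9 genes were low. The highest value of any member in any library was 6.52 TPM, for Tbx4, and only Tbx4 and Eomes reached 2 TPM. Eomes, a T-box activator of mesendoderm, was the steadiest, from 1.45 to 2.65 TPM over the 24 libraries with a median of 2.23. Tbx6 lay between 0.261 and 0.905 TPM and Cdx1 between 0.226 and 0.909 TPM. Mesp1 did not exceed 0.389 TPM and Evx1 0.307 TPM. Brachyury was above every member but Tbx4 at day 0, from 5.56 to 13.5 TPM. Antisense genes overlap Eomes (Gm33460) and Evx1 (Evx1os), and because the labels and the study's methods name different library kits, reads of the 2 strands may not have been told apart there.

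**Figure D1:**
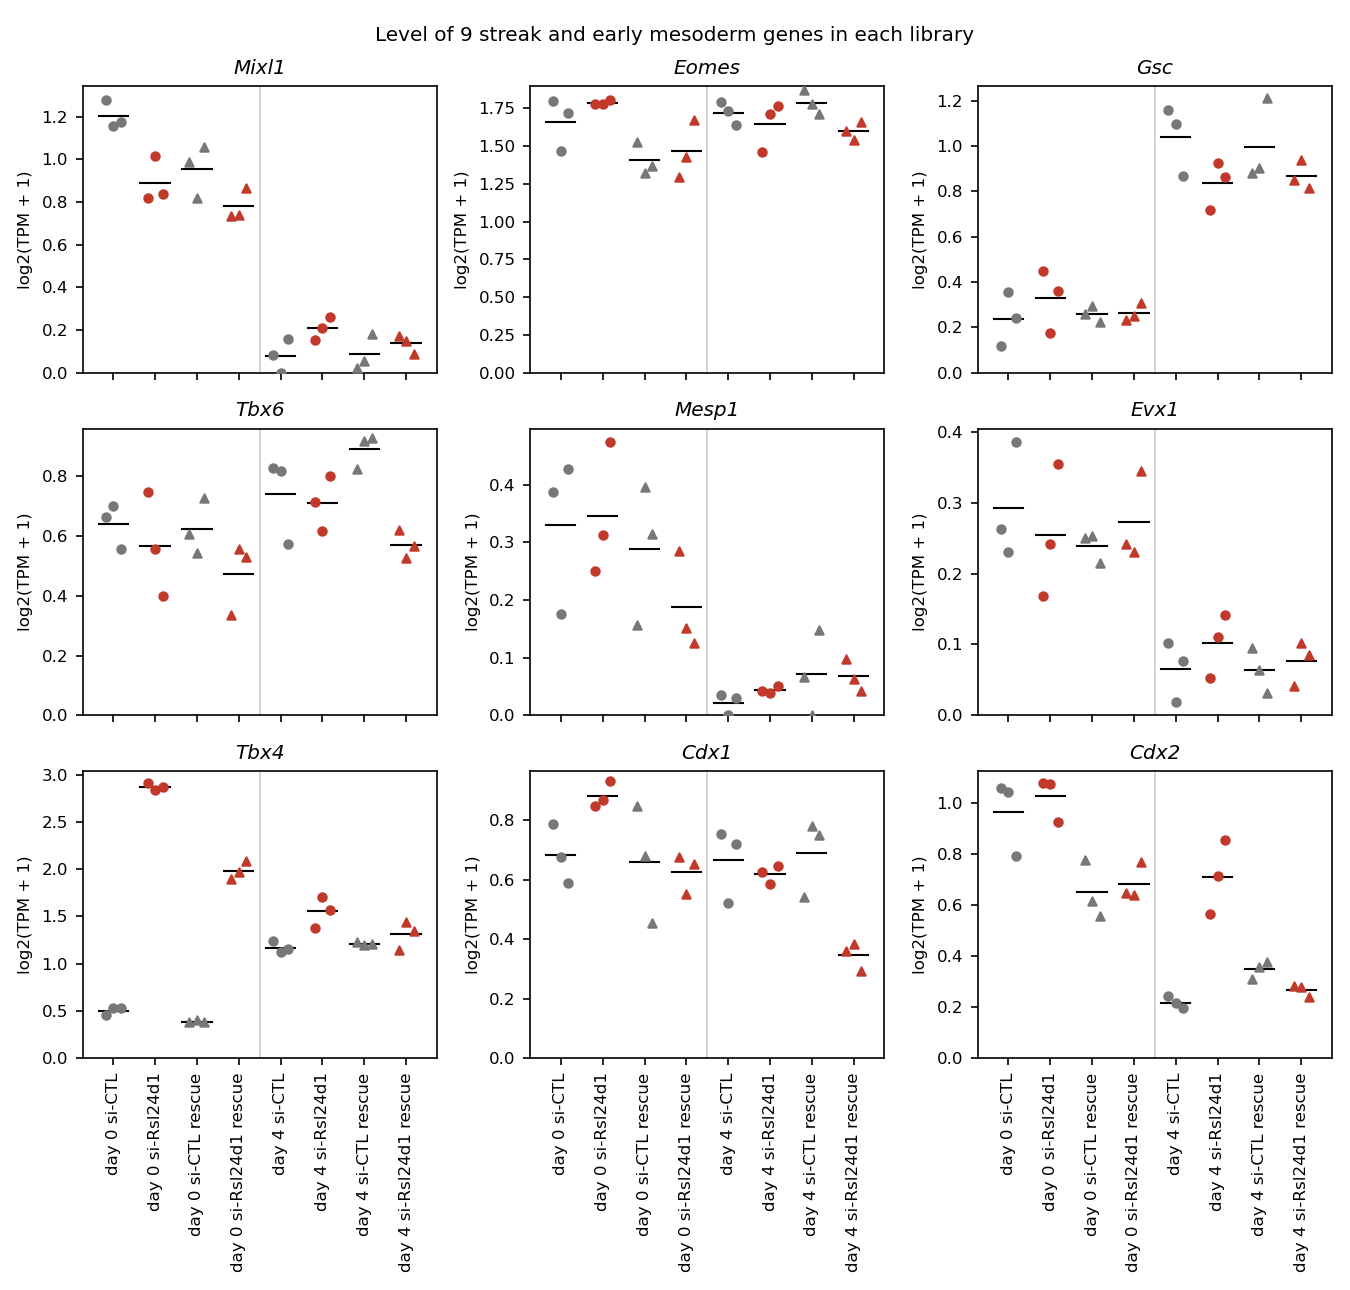
Level of each of the 9 genes, as log2(TPM + 1), in the 8 groups. Points are single libraries (circles without rescue, triangles with rescue, grey si-CTL, red si-Rsl24d1), black lines are group means over 3 libraries and the grey line separates day 0 from day 4. At day 0 without rescue the si-Rsl24d1 libraries lie at 2.84 to 2.91 for Tbx4 and the si-CTL libraries at 0.45 to 0.53, with rescue they lie at 1.89 to 2.09 and 0.38 to 0.40, and Mixl1 and Gsc separate the days in opposite directions.

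The first comparison asks how loss of Rsl24d1 changed these genes in self-renewing ESCs. Without rescue, 1 of the 7 tested members was called, Tbx4, against 4.18% of all genes tested. Tbx4 was at 0.369, 0.441 and 0.44 TPM in the 3 si-CTL libraries and at 6.52, 6.16 and 6.3 TPM in the 3 si-Rsl24d1 libraries. The groups were far apart and the replicates tight in each. Mean Tbx4 was 0.417 ± 0.041 TPM (SD, n = 3) in si-CTL and 6.33 ± 0.183 TPM (SD, n = 3) in si-Rsl24d1, a ratio of 15.2, and the log2 change was 2.37 (SE 0.08, limma adjusted p = 1.52e-14). In bulk RNA, more cells with the gene on and more transcripts per cell cannot be told apart.

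Tbx4 lies on chromosome 11 of GRCm38 at 85886422 to 85916097 on the plus strand, with 3 annotated transcripts. The start of the most downstream of these is also the RefSeq start, and its promoter is shown because Tbx4 carries the siRNA result at day 0. The other sequence is that of Cdx2, which passed the adjusted p between siRNA groups at day 4 without rescue but was not called. Each runs from 250 bases before to 50 bases after the start, 5′ to 3′ on the gene's strand, from RefSeq on GRCm38.p6. Promoter entries were found for 7 of the 9 members, without Mixl1 and Cdx1. Cdx2 itself lies on chromosome 5 at 147300805 to 147307270 on the minus strand.

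Tbx4 promoter, chr11:85896515-85896814, plus strand: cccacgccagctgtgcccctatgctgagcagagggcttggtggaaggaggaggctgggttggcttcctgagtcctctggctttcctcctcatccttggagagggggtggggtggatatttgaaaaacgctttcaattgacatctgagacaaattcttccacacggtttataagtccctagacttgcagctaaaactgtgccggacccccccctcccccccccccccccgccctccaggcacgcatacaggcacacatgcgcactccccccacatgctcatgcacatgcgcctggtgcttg

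Cdx2 promoter, chr5:147307200-147307499, minus strand: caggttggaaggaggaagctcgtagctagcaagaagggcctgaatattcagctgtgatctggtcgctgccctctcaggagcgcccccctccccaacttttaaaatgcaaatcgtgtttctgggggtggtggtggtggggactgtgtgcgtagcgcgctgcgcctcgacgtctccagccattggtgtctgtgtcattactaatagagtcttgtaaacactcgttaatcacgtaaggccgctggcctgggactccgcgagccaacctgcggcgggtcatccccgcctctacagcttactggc

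Capitals would mark 4 motifs searched on both strands, the T-box site GGTGTGA, the TCF/LEF site ATCAAAG, the Cdx site TTTATG and the retinoic acid receptor half-site AGGTCA, and neither sequence has any. They are held by 3.98%, 3.73%, 11.9% and 16.3% of all 32851 RefSeq promoters of this length. Among the 7 members with an entry, only the Mesp1 promoter had a match, with 1 T-box and 1 TCF/LEF site. The other annotated Tbx4 starts lie further upstream and their promoters were not searched. Which start was in use cannot be told from values per gene. The Tbx4 window holds 8 CpG dinucleotides and the Cdx2 window 18, against a median of 7 over all promoters.

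Genes around Tbx4 did not all move with it. Of 6 tested genes within 500 kb, Tbx2, the T-box gene 44.5 kb upstream, rose at day 0 without rescue (log2 change 0.49, limma adjusted p = 5.05e-06). Tbx2 was low at day 0, with a mean log2(TPM + 1) of 0.34 against 0.91 at day 4, and passed the filter through day 4. The other five, Bcas3, Brip1, Brip1os, Ints2 and Med13, had changes between -0.17 and 0.03 with limma adjusted p from 0.189 to 0.806. The other T-box genes as a list of 14 had 5 tested, of which 1 rose, 2 fell and none was called, and their median change was -0.25 against -0.01 over all genes. Of the T-box members of the set, Eomes changed by 0.13 (limma adjusted p = 0.347) and Tbx6 by -0.07 (limma adjusted p = 0.567).

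Mixl1, the paired-type homeobox gene of the streak, fell at day 0 without reaching the fold threshold. It was at 1.43, 1.23 and 1.26 TPM in si-CTL and 0.764, 1.02 and 0.784 TPM in si-Rsl24d1. The libraries of the 2 groups did not overlap, as was so for 51.1% of all genes tested, and the ratio of means was 0.657. On the log2 scale Mixl1 changed by -0.31 (SE 0.08, limma adjusted p = 0.00257). Together with Tbx4, 2 of the 7 tested members passed the adjusted p alone, against 30.4% of all genes tested, a share near that of genes at large.

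No other member passed the test at day 0 without rescue. Cdx1, a caudal homeobox gene, was at 0.506 to 0.724 TPM in si-CTL and 0.801 to 0.909 TPM in si-Rsl24d1, without overlap, with a change of 0.20 (95% interval 0.01 to 0.39, limma adjusted p = 0.0901). For Gsc, the organizer homeobox gene, the interval of the change was -0.12 to 0.30, and for Cdx2 it was -0.11 to 0.24. Mesp1, in a fit with no filter on low values, changed by 0.01, and Evx1 by -0.04.

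**Figure D2:**
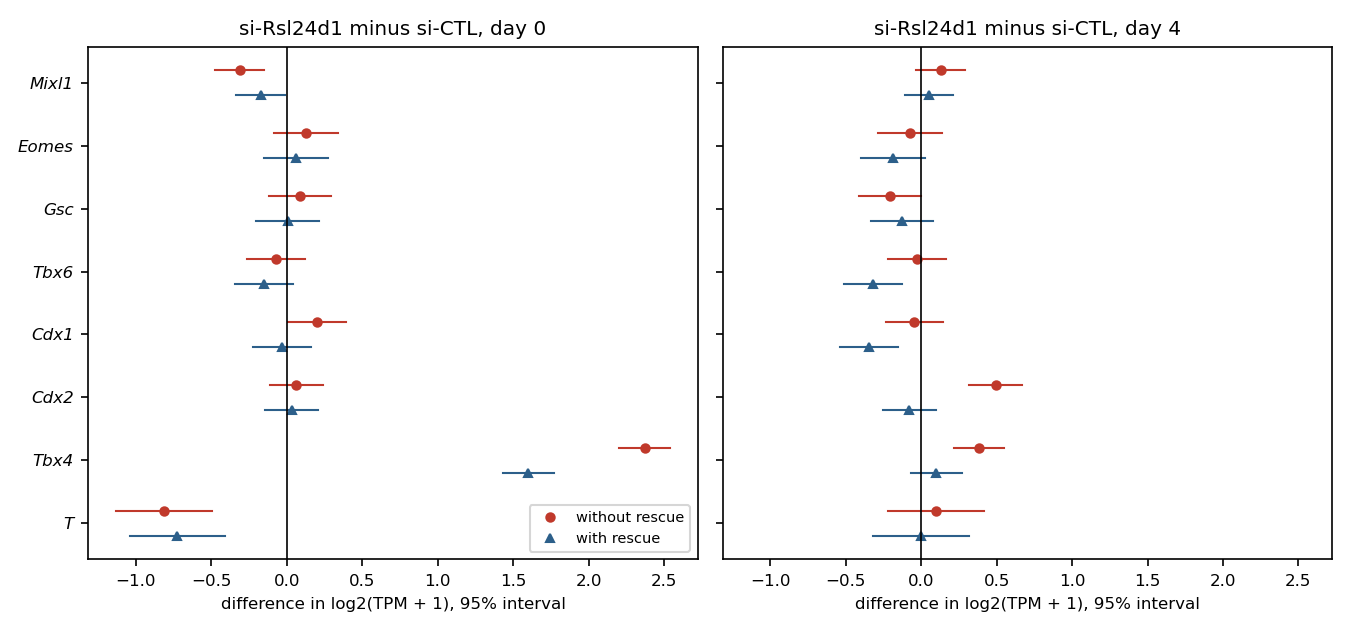
Change of the 7 tested members and Brachyury (T) on si-Rsl24d1 against si-CTL at day 0 (left) and day 4 (right), as the difference in log2(TPM + 1) with its 95% interval from limma, 3 libraries a group. Red circles are without rescue and blue triangles with rescue. Tbx4 is far to the right at day 0 (2.37 and 1.60) and less so at day 4 (0.38 and 0.10), where its interval without rescue is 0.22 to 0.55. Brachyury lies to the left at day 0 (-0.81 and -0.73).

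Brachyury, the T-box gene that defines the streak and drives mesoderm formation, went the opposite way from Tbx4. Its 3 si-CTL libraries at day 0 were at 12.9, 13.5 and 12.1 TPM and its si-Rsl24d1 libraries at 5.56, 9.14 and 6.31 TPM. The groups did not overlap, although the siRNA libraries were spread. Brachyury fell by 0.81 on the log2 scale (SE 0.15, limma adjusted p = 0.000209), below the fold threshold.

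Other streak and mesoderm regulators were divided. In a list of 25 with 14 tested, which holds Brachyury and none of the 9 members, 5 rose, 2 fell and 2 were called at day 0 without rescue, and the median change was 0.14 against -0.01 over all genes. Both called genes act in paraxial mesoderm segmentation. Dll1, a Notch ligand, changed by 2.29 (SE 0.12, limma adjusted p = 1.03e-11) from 2.93 to 18.2 TPM, and Mesp2, the paralog of Mesp1, by 0.86 (SE 0.09, limma adjusted p = 1.07e-07) from 1.15 to 2.91 TPM. The call of Mesp2 was lost when the third si-CTL library was left out (0.81). Mesp1 was at 0.130 to 0.345 TPM in the same si-CTL libraries.

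The signals that induce the streak split in direction. Of 15 ligands, cofactors and feedback genes, 13 were tested, 5 rose and 4 fell at day 0 without rescue, and the median change was 0.19. Wnt8a rose by 2.22 (limma adjusted p = 2.67e-14), Wnt3, the ligand that starts streak formation, by 1.45 (limma adjusted p = 4.03e-10) and Nodal by 1.10 (limma adjusted p = 3.81e-12). Bmp4 changed by -0.97 (limma adjusted p = 1.77e-05), from 22.7 to 11.2 TPM. Thus 3 streak-inducing ligands were called higher and 1, Bmp4, was called lower in libraries where Brachyury and Mixl1 were lower. Eomes and Gsc did not pass the test there.

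**Figure D3:**
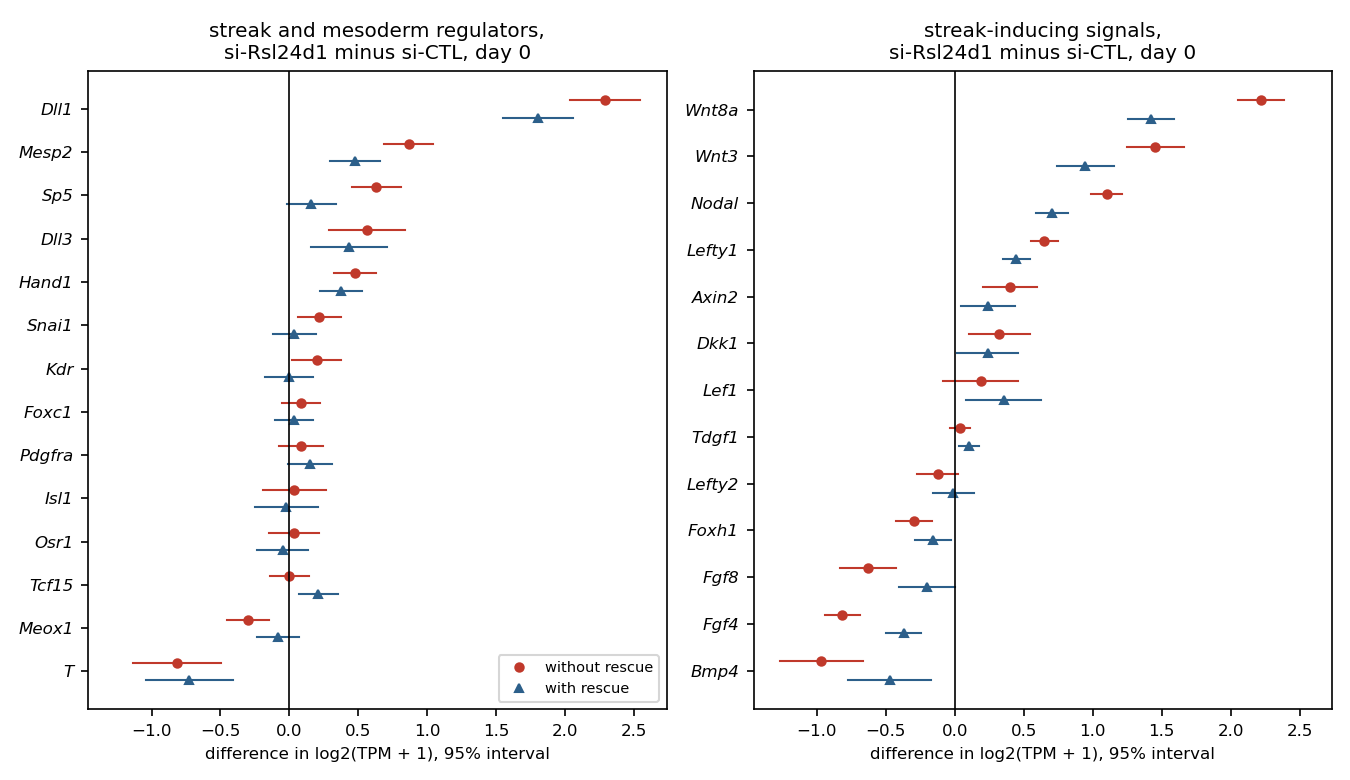
Change at day 0 of the tested genes of 2 lists, streak and mesoderm regulators (left) and streak-inducing signals (right), on si-Rsl24d1 against si-CTL, as the difference in log2(TPM + 1) with its 95% interval from limma. Red circles are without rescue and blue triangles with rescue. Dll1 (2.29) and Wnt8a (2.22) head the lists and Brachyury (-0.81) and Bmp4 (-0.97) end them.

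Markers of other states moved in the same libraries. Of 7 post-implantation epiblast markers 4 rose and 1 fell, with Fgf5 (0.94) and Pou3f1 (0.92) called. Of 10 pluripotency markers 8 fell, with Esrrb (-1.09) and Zfp42 (-0.96) called. The summed level of the pluripotency markers was 5195 to 5352 TPM in si-CTL and 4111 to 4158 TPM in si-Rsl24d1. That of 16 trophoblast markers was 359 to 376 and 427 to 449 TPM, and such sums follow the most abundant genes. Of 13 trophoblast markers tested 5 rose and 1 fell, with Gcm1 (1.20) and Tead4 (-0.99) called in opposite directions. Of 8 tested endoderm markers 1 rose. Their part in the change of the members was not tested.

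The second question is how far the rescue transgene changed these effects. With rescue, Tbx4 was again the 1 member called between siRNA groups at day 0, against 1.36% of all genes. Its libraries were at 0.301, 0.317 and 0.299 TPM in si-CTL and 2.71, 2.92 and 3.25 TPM in si-Rsl24d1. The separation was complete, as was so for 33% of all genes tested. It was smaller than without rescue, with a ratio of means of 9.69 and a log2 change of 1.60 (SE 0.08, limma adjusted p = 1.93e-11). Rsl24d1 still differed between these groups by -0.50 (SE 0.07, limma adjusted p = 2.19e-05).

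Within si-Rsl24d1 cells at day 0, Tbx4 was lower in all 3 libraries with rescue than in all 3 without it. The groups were likewise without overlap for 43.2% of all genes tested. Tbx4 changed by -0.89 on the log2 scale (SE 0.08, limma adjusted p = 5.01e-07). This was the 1 member called, against 0.28% of genes, and the call was lost when the TPM were rescaled by median of ratios (-0.78) or when the first si-Rsl24d1 rescue library was left out (-0.84). The median of all genes shifted by -0.11 in this comparison. Cdx2 also fell (-0.34, SE 0.08, limma adjusted p = 0.00527), so that 2 of 7 members passed the adjusted p, against 15.3% of genes.

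In si-CTL cells Tbx4 did not pass the test of rescue (-0.12, 95% interval -0.29 to 0.05, limma adjusted p = 0.281). There 0 members were called, against 0% of all genes, and 2 genes in all passed the adjusted p. Cdx2 gave -0.31 there (limma adjusted p = 0.0249), where the all-gene median was -0.12. The difference of the siRNA effect between cells with and without rescue was itself tested, and Tbx4 gave -0.77 (SE 0.11, limma adjusted p = 0.000482), past the p and below the fold threshold. No member was called in that test, against 0.128% of genes. The siRNA effect on Brachyury was -0.73 with rescue (SE 0.15, limma adjusted p = 0.00147), and its difference from the effect without rescue was 0.09 (95% interval -0.36 to 0.54, limma adjusted p = 0.897).

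**Figure D4:**
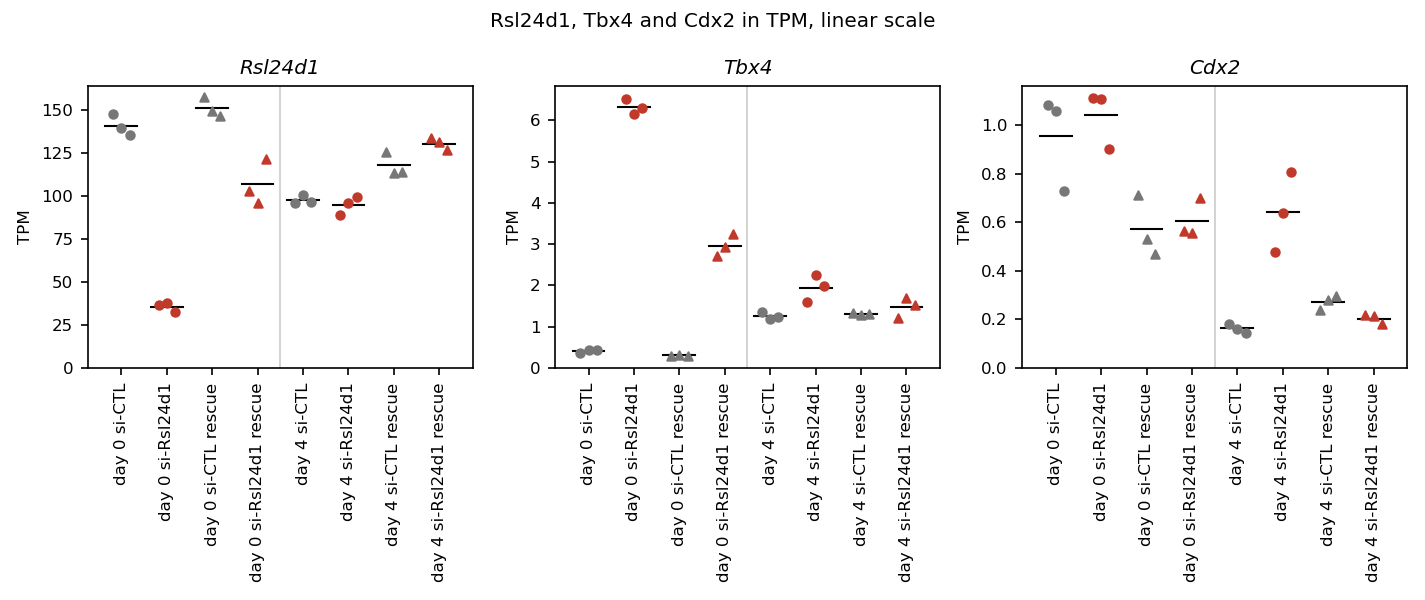
Rsl24d1 (left), Tbx4 (middle) and Cdx2 (right) in TPM on a linear scale in the 8 groups. Points are single libraries (circles without rescue, triangles with rescue, grey si-CTL, red si-Rsl24d1) and black lines are means over 3 libraries. At day 0 the group with the lowest Rsl24d1 (mean 35.7 TPM) has the highest Tbx4 (mean 6.33 TPM), and at day 4 Cdx2 is higher in si-Rsl24d1 without rescue (0.479 to 0.809 TPM) than in any other day 4 group.

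Over all 8 groups, mean Tbx4 ordered as 6.33 TPM in day 0 si-Rsl24d1, 2.96 in day 0 si-Rsl24d1 with rescue, 1.95 in day 4 si-Rsl24d1, 1.49 in day 4 si-Rsl24d1 with rescue, 1.31 and 1.25 in day 4 si-CTL with and without rescue, and 0.417 and 0.306 in the day 0 si-CTL groups. Each of the 4 day 4 groups overlapped with its neighbour in this order in single libraries, and the day 0 groups did not overlap with any other. As a description with no test, the genes whose values were most like those of Tbx4 over the 24 libraries were Btg2 (Pearson r = 0.990), Nipal4 (0.989) and Phlda3 (0.983), and over the 12 day 0 libraries Serpine2 (0.999), Btg2 (0.999) and Perp (0.998). These points share libraries and the large gap between siRNA groups. For Cdx2 the nearest genes over 24 libraries were Kat7 (0.970), Taf5 (0.970) and Mta2 (0.962), and for Mixl1 they were Med25 (0.987), Pcbp2 (0.987) and Sephs2 (0.984). No member was among the 3 genes nearest to another member.

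The next comparisons ask how the members behaved between day 0 and day 4 with retinoic acid. In si-CTL cells without rescue 1 of 7 tested members was called, Mixl1, against 15% of genes. It was at 1.43, 1.23 and 1.26 TPM at day 0 and at 0.058, 0 and 0.116 TPM at day 4. Mixl1 was thus near the bottom of the scale in every day 4 library and listed at 0 in 1, and it passed the filter on low values through day 0. Its change was -1.12 (SE 0.08, limma adjusted p = 1.18e-10) and the ratio of means was 0.0444. Brachyury changed by -3.25 (SE 0.15, limma adjusted p = 3.89e-13), from 12.8 to 0.471 TPM.

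Gsc went the other way. It rose from 0.0842, 0.28 and 0.182 TPM to 1.23, 1.14 and 0.824 TPM, with no overlap between the days, as was so for 72.5% of all genes tested. The ratio of means was 5.85 and the change 0.80 (SE 0.10, limma adjusted p = 5.24e-07), just below the fold threshold. Tbx4 rose as well, from a mean of 0.417 to 1.25 TPM (0.67, SE 0.08, limma adjusted p = 3.96e-07), and Cdx2 fell from 0.957 to 0.163 TPM (-0.75, SE 0.08, limma adjusted p = 1.61e-07). With Mixl1 these made 4 of 7 members past the adjusted p, 2 in each direction, against 60.9% of all genes. Like Mixl1, Gsc and Cdx2 passed the filter through the days when they are high: mean log2(TPM + 1) was 0.27 at day 0 and 0.93 at day 4 for Gsc, and 0.83 and 0.39 for Cdx2. The counts of members therefore give no support of their own.

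The remaining members gave less. Eomes changed by 0.06 (95% interval -0.15 to 0.27), Tbx6 by 0.10 (-0.09 to 0.29) and Cdx1 by -0.02 (-0.21 to 0.17). In the fit with no filter Mesp1 fell by 0.31 (limma adjusted p = 0.00113) and Evx1 fell by 0.23 (limma adjusted p = 0.000432), and at day 4 neither exceeded 0.108 TPM in any library. In the streak and mesoderm list 3 of 14 rose and 6 fell, with a median change of -0.13 against -0.10 over all genes. Called lower were 4, Brachyury, Tcf15 (-1.97), a somite factor, Sp5 (-1.51), a Wnt target, and Dll1 (-0.97). Called higher was 1, Osr1 (0.95), which was near the bottom of the scale at day 0 (mean log2(TPM + 1) of 0.04).

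Most streak-inducing signals also fell. Of 13 tested, 11 fell and 1 rose, and the called ones included Tdgf1 (-1.69), the Nodal co-receptor, Lef1 (-1.60) and Lefty1 (-1.50), while Dkk1, a secreted Wnt inhibitor, was higher (1.66). Retinoic acid targets gave 5 rising and none falling of 9 tested, among them Stra8 (1.97), Crabp2 (1.31) and Cyp26b1 (1.22). Of 5 tested neural markers 1 rose and 3 fell, with Tubb3 (-1.99) and Map2 (-1.18) called, and of 8 endoderm markers 7 rose, with Dab2 (1.48) and Gata6 (0.88) called. Of 13 trophoblast markers 4 rose and 2 fell, with Krt7 (2.27) and Gata3 (1.12) called. Over all genes tested, 60.9% passed the adjusted p in this comparison. Some of these list genes passed the filter through day 4, among them Sox17, Pdgfra and Cyp26b1. Their mean log2(TPM + 1) was 0.38, 0.29 and 0.19 at day 0 and 1.23, 0.95 and 1.44 at day 4. The counts of rising list genes therefore give no support of their own.

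The other 3 arms shared the direction for Mixl1, Gsc and Cdx2, and for Tbx4 only si-CTL with rescue did. In si-Rsl24d1 without rescue 1 of 7 was called, Tbx4, against 14.1% of genes, and 4 of 7 passed the adjusted p, against 55.8%. In si-CTL with rescue 1 of 7 was called, Mixl1, against 15.6%, and 5 of 7 passed the adjusted p, against 59.2%. In si-Rsl24d1 with rescue no member was called, against 14.9%, and 4 of 7 passed the adjusted p, against 58.1%. The call of Mixl1 with rescue was lost without the third day 0 library (-0.82) or the first day 4 library (-0.84) of si-CTL with rescue.

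Mixl1 changed by -0.68 in si-Rsl24d1 without rescue, -0.87 in si-CTL with rescue and -0.64 in si-Rsl24d1 with rescue, with limma adjusted p from 5.19e-09 to 3.68e-07. Gsc changed by 0.51, 0.74 and 0.60, with limma adjusted p from 1.59e-06 to 0.000149. Cdx2 changed by -0.32, -0.30 and -0.42, with limma adjusted p from 0.00021 to 0.00349. Eomes rose in si-CTL with rescue (0.38, SE 0.10, limma adjusted p = 0.00254), where the all-gene median was 0.12.

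Tbx4 changed by -1.32 in si-Rsl24d1 without rescue (SE 0.08, limma adjusted p = 1.95e-11) and by -0.68 with rescue (SE 0.08, limma adjusted p = 3.55e-07), but by 0.82 in si-CTL with rescue (SE 0.08, limma adjusted p = 2.13e-08). All 3 day 4 libraries of si-Rsl24d1 without rescue, at 1.61, 2.26 and 1.97 TPM, lay below the day 0 libraries of the same siRNA and above the day 0 libraries of si-CTL. Between the days of si-Rsl24d1 without rescue, 66.3% of all genes tested had no overlap. The mean Tbx4 level of all 4 day 4 groups, from 1.25 to 1.95 TPM, lay between the day 0 levels of si-CTL and si-Rsl24d1.

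**Figure D5:**
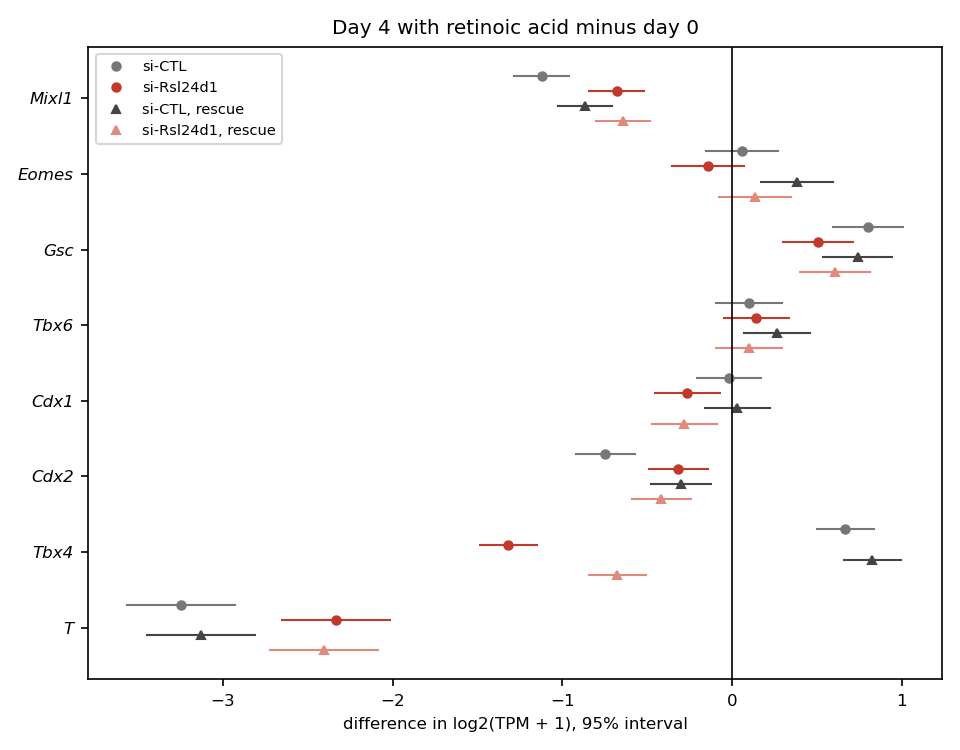
Change of the 7 tested members and Brachyury (T) from day 0 to day 4 with retinoic acid in the 4 arms, as the difference in log2(TPM + 1) with its 95% interval from limma, 3 libraries a group. Circles are without rescue and triangles with rescue. Tbx4 is the member whose arms lie on both sides of 0 with intervals that leave it out, at 0.67 and 0.82 in si-CTL and -1.32 and -0.68 in si-Rsl24d1.

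The difference in siRNA effect between the days, without rescue, was tested directly. Of 7 members 1 was called, Tbx4, against 5.61% of genes, with a value of -1.99 (SE 0.11, limma adjusted p = 1.09e-10). In all, 3 of 7 passed the adjusted p, against 30.9% of genes. Mixl1 gave 0.44 (SE 0.11, limma adjusted p = 0.00281) and Cdx2 gave 0.43 (SE 0.12, limma adjusted p = 0.00653), with an all-gene median of 0.14. Brachyury gave 0.91 (SE 0.21, limma adjusted p = 0.00202). The same test gave 1.91 for Rsl24d1 (SE 0.10, limma adjusted p = 2.65e-11), whose siRNA groups overlapped at day 4.

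At day 4 without rescue, the siRNA groups differed in Cdx2 and Tbx4 and no member was called, against 1.63% of genes. These 2 of 7 members passed the adjusted p, against 30.9% of genes, a share near that of genes at large. The all-gene median was 0.13. Cdx2, the caudal factor of trophoblast and posterior mesoderm, was at 0.182, 0.161 and 0.145 TPM in si-CTL and 0.479, 0.64 and 0.809 TPM in si-Rsl24d1. The groups did not overlap, as was so for 48.4% of all genes tested, and the ratio of means was 3.95, while the log2 change was 0.49 (SE 0.08, limma adjusted p = 0.00015). Tbx4 changed by 0.38 (SE 0.08, limma adjusted p = 0.000898), from 1.25 to 1.95 TPM, also without overlap. With 0.1 in place of 1 added before the logarithm, Cdx2 passed both thresholds.

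Markers of other lineages moved at day 4 in the same libraries. Of 13 tested trophoblast markers 10 rose and none fell, with Plac1 (2.01) and Hand1 (1.13) called, and their summed level was 432 to 472 TPM in si-CTL and 580 to 684 TPM in si-Rsl24d1. Of 8 endoderm markers 5 rose, with Gata6 (0.99) and Dab2 (0.87) called. Of 14 streak and mesoderm regulators 8 rose and none fell, with Osr1 (1.17) and Hand1 called, while Mixl1 (0.13, limma adjusted p = 0.179), Eomes (-0.07, limma adjusted p = 0.577) and Brachyury (0.10, limma adjusted p = 0.629) did not pass the test. Some of these list genes, among them Sox17, Pdgfra and Osr1, passed the filter through day 4, so the counts give no support of their own. The part of these markers in the Cdx2 values was not tested.

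With rescue Cdx2 was not higher in si-Rsl24d1 at day 4. Its libraries were at 0.24, 0.279 and 0.298 TPM in si-CTL and 0.217, 0.212 and 0.18 TPM in si-Rsl24d1, all lower. The change was -0.08 (95% interval -0.26 to 0.10, limma adjusted p = 0.608). Tbx4 changed by 0.10 (95% interval -0.07 to 0.27, limma adjusted p = 0.489). No member passed the adjusted p, against 5.87% of genes, and none was called, against 0.73%. Cdx1 had the largest change of the 7 tested members, from 0.457, 0.717 and 0.681 to 0.283, 0.305 and 0.226 TPM without overlap, as was so for 35.6% of all genes tested, at -0.35 (SE 0.09, limma adjusted p = 0.0165). Tbx6 gave -0.32 (SE 0.09, limma adjusted p = 0.0272) and Eomes -0.19 (SE 0.10, limma adjusted p = 0.26), both also without overlap.

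Within si-Rsl24d1 cells at day 4, Cdx2 was lower with rescue than without it (-0.44, SE 0.08, limma adjusted p = 0.00181). No member was called there, against 0.0851% of genes. The difference of the day 4 siRNA effect between cells with and without rescue, a test added after the Cdx2 values had been seen, was -0.57 for Cdx2 (SE 0.12, limma adjusted p = 0.00376) with an all-gene median of -0.17. No member was called in it, against 0.511% of genes. The day 4 comparisons with and without rescue use separate libraries, but each library also enters the comparison with day 0, so the results above are not independent of each other.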

How the data were processed

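RNA was sequenced from 24 cultures (8 groups of 3). The deposited values are log2(TPM + 1) per gene symbol, made by the authors from reads aligned with STAR and quantified with Salmon. The labels give STAR 2.7.8a, Salmon 1.4.0, a poly-A kit and the GRCh38 build, whereas the study's methods name a stranded total-RNA kit, other versions and the mouse build GRCm38, which was used here for positions. Because the TPM of each library sum to the same total, depth is unknown and no count test was used.

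Of 54242 symbols, 16447 with a mean of at least 0.5 over the 24 libraries were fitted with limma 3.58.1 (R 4.3.3) as 8 group means with an intensity trend, and p-values were Benjamini-Hochberg adjusted over them. Called genes had adjusted p under 0.01 and more than 1.8-fold change. An exact permutation of 3 against 3 libraries cannot go below 0.1. The script was tested on simulated data. The 9 members and the gene lists were chosen with earlier results of these data known, so the lists give no independent support. Named were the members, Rsl24d1, Brachyury, up to 4 called genes per list and comparison with the largest change, and each member's 3 nearest genes. Genes near Tbx4 were chosen by position after its values were seen. Same-numbered libraries did not deviate together (mean correlation of residuals -0.0173 over 84 pairs), so replicate numbers were not treated as pairs. Alternatives covered the value added to the TPM, the filter, scaling, the groups fitted, the fold threshold, a replicate block and each library left out. Figures were drawn with matplotlib 3.10.9.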

Additional observations from a re-analysis of the deposited data

Results flagged for a closer look

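Effects of si-Rsl24d1 that differed between days or between cells with and without rescue were set apart by limma's adjusted p for the difference itself, under 0.01. Of the 7 tested members, Tbx4 had the largest difference between day 4 and day 0 without rescue (-1.99, limma adjusted p = 1.09e-10): the siRNA effect was 2.37 at day 0 and 0.38 at day 4. Between cells with and without rescue at day 0 the Tbx4 effect differed by -0.77 (limma adjusted p = 0.000482).

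Cdx2 showed the reverse order in time, with an siRNA effect of 0.06 at day 0 and 0.49 at day 4, a difference of 0.43 (limma adjusted p = 0.00653). At day 4 its effect differed between cells with and without rescue by -0.57 (limma adjusted p = 0.00376), in a test added after the values had been seen. Mixl1 had an effect of -0.31 at day 0 and 0.13 at day 4, a difference of 0.44 (limma adjusted p = 0.00281). Mixl1 was at most 0.198 TPM in every day 4 library, and the part of this low level in the difference was not tested.

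Brachyury (T) had effects of -0.81 and 0.10, a difference of 0.91 (limma adjusted p = 0.00202), and it too was at most 0.724 TPM at day 4. With 0.1 in place of 1 added to the TPM its difference was 1.19 and no longer passed the test. No library was judged as standing apart within its group, since groups of 3 are too small for that.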

How the results depend on the processing

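Over the 14 comparisons, the number of members called stayed within 1.5 times its value in 177 of 214 combinations of comparison and alternative. With 0.1 added to the TPM more members were called: between day 4 and day 0 the count became 4 in si-CTL (Mixl1, Gsc, Tbx4, Cdx2), 3 in si-Rsl24d1, 3 in si-CTL with rescue and 4 in si-Rsl24d1 with rescue, from 1, 1, 1 and 0. It became 1 for the siRNA effect at day 4 without rescue (Cdx2) and with rescue (Cdx1), 1 for rescue in si-Rsl24d1 at day 4 and for the added day 4 difference (Cdx2), and 2 for the difference between days (Tbx4, Cdx2). With 2 added it became 0 for rescue in si-Rsl24d1 at day 0 and for day 4 against day 0 in both si-CTL arms. A filter at a mean of 1.5 left only Eomes to test, so all 7 counts of 1 became 0 by construction. Median of ratios scaling gave 0 for rescue in si-Rsl24d1 at day 0 and 2 for day 4 in si-CTL (Mixl1, Gsc at 0.85). With no fold threshold the counts were 2 for siRNA at day 0, 2 for rescue in si-Rsl24d1 at day 0, 4, 4, 5 and 4 for the 4 day comparisons, 2 for siRNA at day 4, 1 for rescue in si-Rsl24d1 at day 4, 3 for the difference between days, and 1 each for the differences by rescue at day 0 and day 4. Leaving out 1 library gave 1 to 2 for day 4 in si-CTL, 0 to 1 for day 4 in si-CTL with rescue and 0 to 1 for rescue in si-Rsl24d1 at day 0. The replicate block changed no count of members called, for example 1 for the siRNA effect at day 0 without rescue, and Tbx4 remained called in it. The direction of no member with an adjusted p under 0.05 changed in any alternative. Brachyury differences that did not pass the test changed sign in some, among them the day 4 siRNA effect (-0.02 without the second si-CTL library) and the day 0 difference by rescue (-0.04 and -0.06). The causes of the changes in count other than that of the filter were not tested. All members but Tbx4 and Eomes stayed under 1.5 TPM, and unknown depth limits what can be said of them.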

Other observations

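As descriptions over 24 libraries that share their groups, the gene nearest to Eomes was Gnpat (Pearson r = 0.849), to Cdx1 Ppt2 (0.809) and to Tbx6 Tmem25 (0.796), and to Gsc it was Ism2 (Pearson r = 0.964), followed by Inca1 (0.962). Over the 12 day 0 libraries the values of Eomes and Cdx2 had a Pearson r of 0.769 and those of Cdx1 and Cdx2 one of 0.698, and Mixl1 and Tbx4 gave -0.58, values that include the gaps between siRNA and rescue groups.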
